A study of Mus musculus with 2 samples.

Results

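The interferon-gamma GTPases described here were 10 genes of 2 protein families, 5 guanylate-binding proteins (Gbp2, Gbp3, Gbp4, Gbp5 and Gbp7) and 5 immunity-related GTPases (Iigp1, Irgm1, Irgm2, Igtp and Ifi47), among the 27998 mouse genes counted. They were chosen by symbol with earlier results of these libraries known, including their level and co-detection by cell class, so those values are given as a description with no test. The series held 2 single-cell RNA libraries, each from 1 glioblastoma (GBM) of a C57BL/6 mouse at 3 months, and both carried the label NPCTKO. In this model, dorsal forebrain progenitors of the embryo received by in utero electroporation a piggyBac transposon with Cas9, luciferase, a fluorescent protein and guides against tumor suppressor genes, Trp53 and Nf1 among them. Both tumors shared these edits, no unedited brain was among the samples, and the hosts carried the Ai14 tdTomato reporter with either Tek-Cre, which is active in endothelial cells and many blood cells, or Tbx18-CreERT2, which is active in mural cells. The labels did not say which host gave which library, so host, tumor and library cannot be told apart in any difference between tumor 1 and tumor 2. With 1 library per tumor there was no test between tumors, and the 95% intervals given for levels (exact Poisson), for ratios of levels (exact conditional) and for shares of cells (exact binomial) cover counting error only.

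Interferon-gamma is made mainly by T cells and natural killer (NK) cells. It binds a receptor built from Ifngr1 and Ifngr2, and the kinases Jak1 and Jak2 then pass the signal on to gamma-activated sites (GAS) in the promoters of target genes. One of these targets is the transcription factor Irf1, which binds interferon-stimulated response elements (ISRE). GBPs and IRGs are among the most strongly induced proteins of this response. GBPs are large GTPases that coat the vacuoles of intracellular pathogens and take part in inflammasome activation. Among the IRGs, Irgm1, Irgm2 and Igtp (also called Irgm3) sit on host membranes and hold the effector GTPases in check, whereas Iigp1 and Ifi47 are effectors that load onto pathogen vacuoles. Type I interferons induce many of the same genes.

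The promoter windows of these genes are shown because they carry the letters of these 2 kinds of site, and the members are read out together in the results that follow. RefSeq windows (GRCm38.p6, 250 bases before to 50 after a start) were matched by symbol for 8 of the 10 genes. An ISRE core (TTTC, then any 2 bases, then TTTC, on either strand) was present in 7 of these 8, against 3.443% of 32851 windows of the same length. A GAS, TTCNNNGAA (which reads the same on both strands), was present in 4 of 8, against 8.298% of windows, and these 4 genes (Gbp5, Gbp7, Igtp and Irgm2) held both motifs, as did 0.454% of all windows. The window of Ifi47 held neither. Capitals mark the motifs, read 5′ to 3′ on the strand of the gene, all of which is plus here:
Gbp3, chr3:142559979-142560034: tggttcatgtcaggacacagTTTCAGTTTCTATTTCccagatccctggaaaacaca
Gbp7, chr3:142530210-142530312: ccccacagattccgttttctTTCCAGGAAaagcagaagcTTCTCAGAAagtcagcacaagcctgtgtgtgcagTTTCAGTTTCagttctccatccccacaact
Igtp, chr11:58199491-58199551: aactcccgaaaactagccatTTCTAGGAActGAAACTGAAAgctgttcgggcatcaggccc
Irgm2, chr11:58214882-58214942: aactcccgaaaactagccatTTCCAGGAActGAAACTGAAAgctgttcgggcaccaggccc
In Gbp3 the capitals hold 2 overlapping ISRE cores, and in Gbp7 they mark 2 GAS and then 1 ISRE core. The stretches of Igtp and Irgm2 were alike at 59 of 61 positions, with the GAS first and the ISRE core on the opposite strand after it. Those of Gbp7, Igtp and Irgm2 overlapped no annotated exon, and 9 bases of that of Gbp3 lay in its first exon. A match is a description of these letters, and binding was not measured.

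In the annotation of the same build, Gbp2, Gbp3, Gbp5 and Gbp7 lie side by side on chromosome 3 and Gbp4 on chromosome 5. Irgm1, Irgm2, Igtp and Ifi47 lie on chromosome 11 and Iigp1 on chromosome 18. Irgm2 and Igtp overlap on the same strand and share 162 exon bases, Gbp7 shares 637 with Gm43802, Ifi47 shares 111 with Olfr56, and Gbp4 shares 61 with Gbp8 and 60 with Gbp9. The counts of these genes are therefore uncertain where reads fell on shared bases. Levels are given as UMIs (captured transcripts counted once) per 10000 UMIs of the class and are compared within a gene.

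Cells were put in classes by raw counts of marker genes, none of them a GTPase or a gene of interferon signaling. The glioma-like class had 7868 cells in tumor 1 and 6478 in tumor 2, the astrocyte-like class 433 and 31, the oligodendrocyte-like class 132 and 71, the microglia-like class 444 and 366, the monocyte-like class 31 and 707, the T-cell-like class 230 and 535, and the endothelial-like class 33 and 22. An NK-like class of 8 and 111 cells was kept for context only, and the orders of classes given for the GTPases leave it out. The cells in no class numbered 2201 and 4879. The EGFP transgene stood at 97.3 and 82.7 UMIs per 10000 in the glioma-like class (the copy with nearly all of its UMIs where the table of tumor 2 lists it under a pair of names), against 5.04 and 4.74 in the microglia-like and 6.50 and 9.17 in the T-cell-like class. It stood at 66.5 and 123 in the astrocyte-like class and at 71.5 and 82.8 in the oligodendrocyte-like class, so both classes, named from markers alone, held this transcript at levels near those of glioma-like cells. Whether these cells descend from electroporated progenitors, or hold it through free RNA or doublets that were not removed, was not tested, and this bears on every value given for both classes. The endothelial-like class had 6.73 in tumor 1 and 40.4 in tumor 2. Whether RNA of glioma-like cells had a part in the GTPase values of this class, and in their difference between the tumors, was not tested. The deposited tables held 282961884 and 295366782 UMIs, and the libraries shared 51 cell barcodes.

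Among the 7 classes, the 10 GTPases together were highest in oligodendrocyte-like cells and lowest in T-cell-like cells of both tumors, and the summed level was higher in tumor 2 in every one of the 7 classes. In oligodendrocyte-like cells the sum was 29.4 (95% interval 28.8 to 30.0) in tumor 1 and 41.2 (40.1 to 42.4) in tumor 2. Astrocyte-like cells came next with 18.6 and 27.9. Endothelial-like cells had 15.03 and 23.7, monocyte-like cells 14.7 and 17.2, glioma-like cells 9.73 and 19.2, microglia-like cells 7.99 and 11.7, and T-cell-like cells 3.71 and 6.84 (6.63 to 7.05 in tumor 2). The NK-like class, outside this order, had 4.37 (2.88 to 6.35) from 27 UMIs in tumor 1 and 6.38 (5.83 to 6.97) in tumor 2, with intervals that held the T-cell-like values. The intervals of endothelial-like and monocyte-like cells overlapped in tumor 1, and glioma-like cells stood above monocyte-like cells in tumor 2 on plain totals. The place of the myeloid classes relative to glioma-like cells depended on the scaling: over glioma-like cells, microglia-like cells had 0.821 and 0.611 of the level on plain totals but 1.59 and 1.07 on totals scaled by TMM (trimmed mean of M values), and monocyte-like cells of tumor 2 had 0.896 and 1.65. Oligodendrocyte-like cells stayed above glioma-like cells (3.22 and 2.25) and T-cell-like cells stayed below (0.620 and 0.556) with that scaling.

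**Figure D1:**
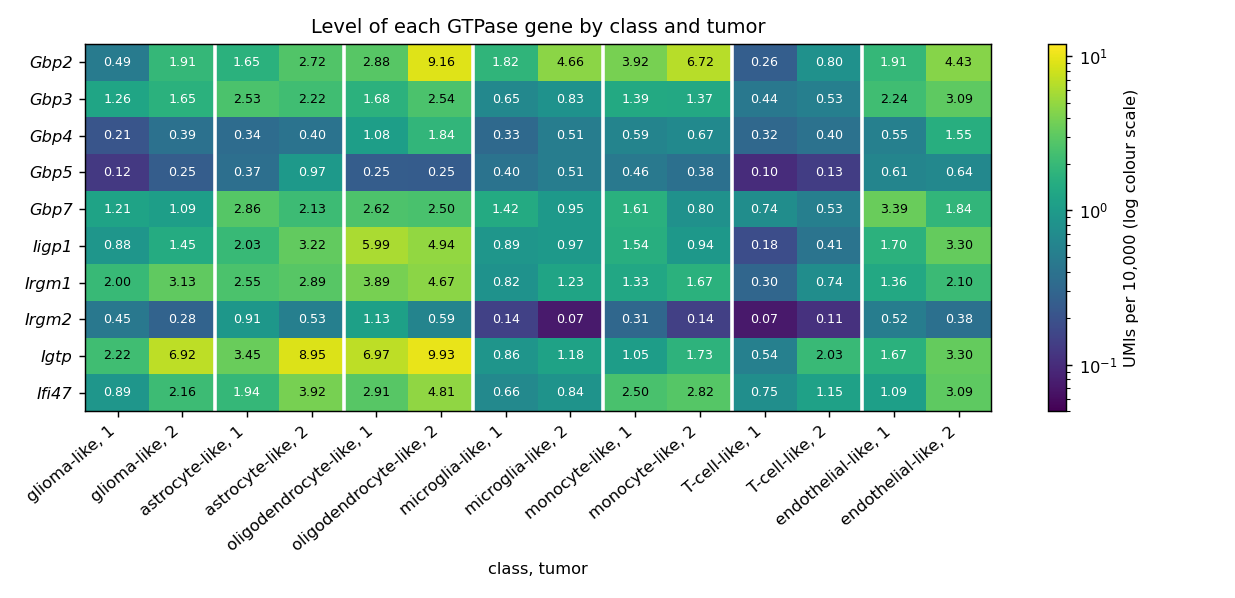
Level of each of the 10 GTPases (rows) in 7 classes of tumor 1 and tumor 2 (columns), as UMIs per 10000 UMIs of the class, with the value printed in each field and a logarithmic color scale. The oligodendrocyte-like columns hold the highest value of Igtp in both tumors (6.97 and 9.93), and the T-cell-like columns hold most of the lowest values.

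The spread between single cells of a class was wide. In glioma-like cells of tumor 1 the summed level per cell had a median of 5.32 and ran from 0.792 at the 10th to 24.5 at the 90th percentile. In tumor 2 the median was 14.8 and the same range 3.11 to 42.2. Oligodendrocyte-like cells had medians of 23.8 and 30.0 and reached 81.8 and 76.7 at the 90th percentile, so single cells with low levels were present there too, with 3.14 and 4.73 at the 10th percentile. The cell with the most GTPase UMIs held 7.19% and 6.65% of the oligodendrocyte-like sum, and without it the level was 27.7 and 40.02. In the small endothelial-like class of tumor 2 a single cell held 16.97% of the sum, and the level without it was 21.4.

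**Figure D2:**
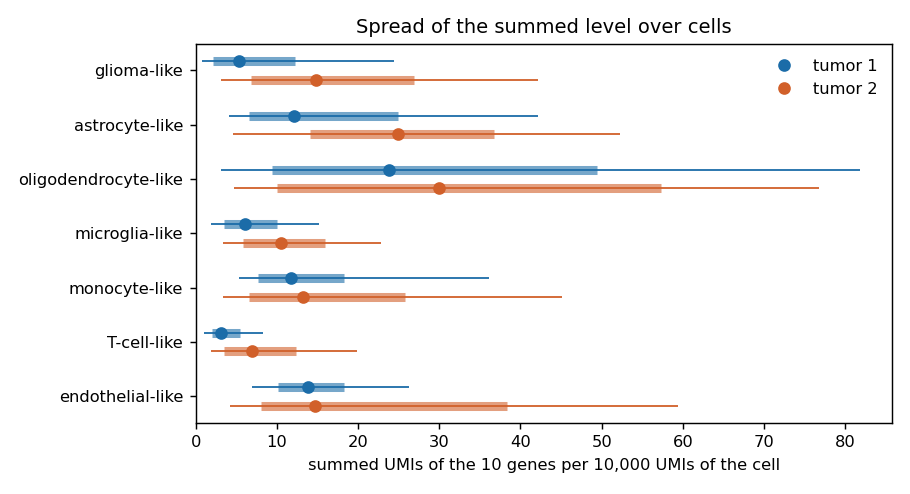
Summed UMIs of the 10 GTPases per 10000 UMIs of each cell (x axis) by class and tumor. Points are medians over cells, thick bars the middle 50% of cells and thin lines the 10th to 90th percentile; the medians are higher in tumor 2 in all 7 classes, with wide overlap between the cells of both tumors.

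Set against glioma-like cells of the same tumor, 6 of the 10 genes were at least 2-fold higher in oligodendrocyte-like cells of both tumors (Gbp2, Gbp4, Gbp7, Iigp1, Irgm2 and Ifi47), where 7.9% of all genes were, and none was 2-fold lower, where 7.6% were. Astrocyte-like cells had 2 such genes, Gbp5 and Iigp1 (8.29% of all genes), and none 2-fold lower (5.31%). In endothelial-like cells Gbp2, Gbp4 and Gbp5 were at least 2-fold higher in both tumors (19.5% of all genes), and none was 2-fold lower (11.5%). In microglia-like cells Gbp2 and Gbp5 were at least 2-fold higher (9.5% of all genes) and Irgm1, Irgm2 and Igtp at least 2-fold lower, 3 of 10 against 42.8% of all genes. Gbp3 was just short of that in microglia-like cells, with ratios of 0.514 and 0.499, so the genes did not divide by family. With TMM scaling no member was 2-fold lower there in both tumors. Irgm2 then had 0.618 and 0.460, Igtp 0.755 and 0.299, Irgm1 0.797 and 0.689, and Gbp3 0.997 and 0.872. Gbp2, Gbp4 and Gbp5 were at least 2-fold higher there in both tumors with that scaling. Monocyte-like cells had Gbp2 higher (9.5%) and Igtp lower (29.6%). With TMM scaling Igtp (0.642 and 0.461) was not 2-fold lower there in both tumors, and Gbp4, Gbp5 and Ifi47 joined Gbp2. In T-cell-like cells none was 2-fold higher (7.79%), and Gbp3, Iigp1, Irgm1, Irgm2 and Igtp were 2-fold lower, 5 of 10 against 31.4% of all genes. Of these, Gbp3 (0.573 and 0.506) and Irgm2 (0.263 and 0.595) were not 2-fold lower in both tumors with TMM scaling. Also at least 2-fold higher in both tumors with TMM scaling were Gbp7 in astrocyte-like (2.46 and 2.05) and Iigp1 in endothelial-like cells (2.03 and 2.35). The shares of all genes given here are for plain totals and were not computed with TMM scaling. Because the levels by class were known when the genes were chosen, the counts describe the genes and nothing is read from them.

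Among the GBPs, Gbp2, which is recruited to pathogen vacuoles and helps release bacterial DNA for inflammasome sensing, had the strongest myeloid pattern. It stood at 3.92 (3.27 to 4.67) in monocyte-like cells of tumor 1 and 6.72 (6.56 to 6.88) in those of tumor 2, at 1.82 and 4.66 in microglia-like cells, and at 0.489 and 1.91 in glioma-like cells. In tumor 2 oligodendrocyte-like cells were higher still, with 9.16 (8.62 to 9.73) after 2.88 in tumor 1. T-cell-like cells were lowest in both, with 0.257 and 0.801. Relative to glioma-like cells, Gbp2 was 8.02-fold and 3.51-fold as high in monocyte-like and 5.89-fold and 4.78-fold as high in oligodendrocyte-like cells.

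Gbp5, which promotes assembly of the Nlrp3 inflammasome, was captured with few UMIs everywhere. Glioma-like cells had 0.123 and 0.251, microglia-like cells 0.401 and 0.511, and astrocyte-like cells 0.373 and 0.970 (0.790 to 1.18). Its highest class differed between the tumors, endothelial-like in tumor 1 (0.606, 0.370 to 0.936, 20 UMIs) and astrocyte-like in tumor 2, and in each tumor the interval of the highest class overlapped that of the next. Oligodendrocyte-like cells, highest for most of the other members, had only 0.249 and 0.248 (71 and 29 UMIs).

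Gbp3 and Gbp7, neighbors on chromosome 3, were found in all classes. Gbp3 stood at 1.26 and 1.65 in glioma-like, 2.53 and 2.22 in astrocyte-like and 2.24 and 3.09 in endothelial-like cells, against 0.444 and 0.535 in T-cell-like cells. Gbp7 stood at 1.21 and 1.09 in glioma-like, 2.86 and 2.13 in astrocyte-like and 2.62 and 2.50 in oligodendrocyte-like cells. Its myeloid levels were 1.42 and 0.948 in microglia-like and 1.61 and 0.798 in monocyte-like cells, so they lay above the glioma-like level in tumor 1 and below it in tumor 2. With TMM scaling they lay above it in both, at 2.28 and 1.52 times the glioma-like level in microglia-like and 1.80 and 1.35 times in monocyte-like cells. Gbp4, whose lowest class was glioma-like in both tumors (0.211 and 0.389), was highest in oligodendrocyte-like cells (1.08 and 1.84). In tumor 2 its interval there (1.60 to 2.10) overlapped that of endothelial-like cells (1.16 to 2.02).

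Among the IRGs, the regulators Igtp and Irgm1 were high in neural classes and low in immune classes on plain totals. Igtp stood at 2.22 (2.19 to 2.24) and 6.92 (6.87 to 6.96) in glioma-like cells, with 6.97 and 9.93 in oligodendrocyte-like and 3.45 and 8.95 in astrocyte-like cells. Microglia-like cells had 0.862 and 1.18, and monocyte-like cells 1.05 and 1.73. Irgm1 followed with 2.00 and 3.13 in glioma-like and 3.89 and 4.67 in oligodendrocyte-like cells, while T-cell-like cells had 0.303 and 0.740 and microglia-like cells 0.823 and 1.23. With TMM scaling the microglia-like level stayed below the glioma-like level for both, with ratios of 0.755 and 0.299 for Igtp and 0.797 and 0.689 for Irgm1 in tumors 1 and 2. The monocyte-like level of Irgm1 (1.33 and 1.67) came near the glioma-like level with that scaling, with ratios of 0.898 and 0.984. For Igtp the monocyte-like ratios were 0.642 and 0.461. Irgm2, which shares exon bases with Igtp, had 0.450 and 0.285 in glioma-like cells and was highest at 1.13 and 0.589 in oligodendrocyte-like cells. Its microglia-like levels were 0.143 and 0.0749.

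The effectors differed from each other. Iigp1 had the widest range between classes of tumor 1, from 0.184 in T-cell-like to 5.99 (5.71 to 6.28) in oligodendrocyte-like cells, a 32.6-fold difference that was 12.1-fold in tumor 2 (0.408 to 4.94). In glioma-like cells it stood at 0.882 and 1.45. On plain totals Ifi47 was lowest in microglia-like cells (0.658 and 0.835), although with TMM scaling their level in tumor 1 was 1.44 times the glioma-like level, and it stood at 2.91 and 4.81 in oligodendrocyte-like, 2.50 and 2.82 in monocyte-like and 0.886 and 2.16 in glioma-like cells. The monocyte-like level of Ifi47 thus lay well above the microglia-like level in both tumors.

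Between the tumors, the members did not all differ in the same direction. Summed over the 10 genes, tumor 2 had 1.98 times the level of tumor 1 in glioma-like cells (1.96 to 1.99), 1.84 in T-cell-like, 1.58 in endothelial-like, 1.499 in astrocyte-like, 1.47 in microglia-like, 1.40 in oligodendrocyte-like and 1.17 (1.07 to 1.29) in monocyte-like cells. The median ratio of all genes was below 1 in every class, from -0.35 on the log2 scale in oligodendrocyte-like to -0.17 in T-cell-like cells, and the median over the members was above it in every class, from 0.07 in monocyte-like to 0.80 in glioma-like cells. With TMM-scaled totals the summed ratio was 1.53 to 2.28. With stricter marker gates, which left 15 monocyte-like cells in tumor 1, the monocyte-like ratio was 0.962, so its direction was not stable.

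Gbp2 and Igtp were higher in tumor 2 in all 7 classes with intervals above 1. For Gbp2 the ratios ran from 1.64 (1.45 to 1.86) in astrocyte-like to 3.91 (3.82 to 4.01) in glioma-like cells. For Igtp they ran from 1.37 in microglia-like to 3.12 (3.08 to 3.16) in glioma-like and 3.74 (3.14 to 4.48) in T-cell-like cells. Ifi47 and Irgm1 were higher in 6 of 7 classes, with an interval that held 1 in monocyte-like cells, and Gbp4 in 4 of 7 with no class lower. All of these directions held with TMM scaling. EGFP was also found outside the glial classes, at 5.04 and 4.74 in microglia-like and 6.73 and 40.4 in endothelial-like cells. Whether RNA carried over from glioma-like cells had a part in the ratios of the other classes was not tested, and the intervals do not cover it.

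Gbp7 and Irgm2 were mostly lower in tumor 2 on plain totals. Irgm2 was lower in 5 of 7 classes with intervals below 1, with ratios of 0.633 (0.609 to 0.657) in glioma-like and 0.521 in oligodendrocyte-like cells, and its T-cell-like ratio of 1.49 had an interval that held 1 (0.881 to 2.63). Gbp7 was below 1 in all 7 classes, with intervals below 1 in 6. Its ratios ran from 0.497 in monocyte-like to 0.954 (0.830 to 1.09) in oligodendrocyte-like cells. With TMM scaling Gbp7 turned to 1.04 in glioma-like and 1.09 in oligodendrocyte-like cells. Irgm2 kept its direction with that scaling. Igtp and Irgm2, whose promoter stretches above are nearly the same and whose exons overlap, thus had ratios on opposite sides of 1 in 6 of 7 classes, although in endothelial-like cells the interval of Irgm2 held 1 (0.736, 0.329 to 1.61, from 17 and 13 UMIs). Whether reads on their shared bases had a part in this was not tested.

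Gbp3 had intervals above 1 in 4 classes and Gbp5 in 3, and neither had one below 1. Gbp5 was highest in ratio in astrocyte-like cells (2.60, 2.07 to 3.24), with 2.04 in glioma-like cells, and Gbp3 had 1.31 in glioma-like and 1.51 in oligodendrocyte-like cells. On plain totals Iigp1 was the only member with intervals above 1 in some classes and below 1 in others. Its ratio was 2.22 in T-cell-like, 1.65 in glioma-like, 1.59 in astrocyte-like and 1.94 in endothelial-like cells, and 0.825 (0.749 to 0.907) in oligodendrocyte-like and 0.606 (0.456 to 0.823) in monocyte-like cells. With TMM scaling the last 2 ratios lay near 1, at 0.941 and 0.952. The members at least 2-fold higher in tumor 2 were 4 in glioma-like cells (10.4% of genes), 3 in astrocyte-like (6.85%), 1 in oligodendrocyte-like (3.05%), 1 in microglia-like (5.48%), 0 in monocyte-like (10.3%), 4 in T-cell-like (6.62%) and 3 in endothelial-like cells (7.64%). At least 2-fold lower in tumor 2 were 2 in monocyte-like cells, Gbp7 (0.497) and Irgm2 (0.458), where 23.0% of genes were. In the other classes 0 members were, against 24.4% of genes in glioma-like, 23.3% in astrocyte-like, 21.4% in oligodendrocyte-like, 17.5% in microglia-like, 13.7% in T-cell-like and 18.6% in endothelial-like cells.

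**Figure D3:**
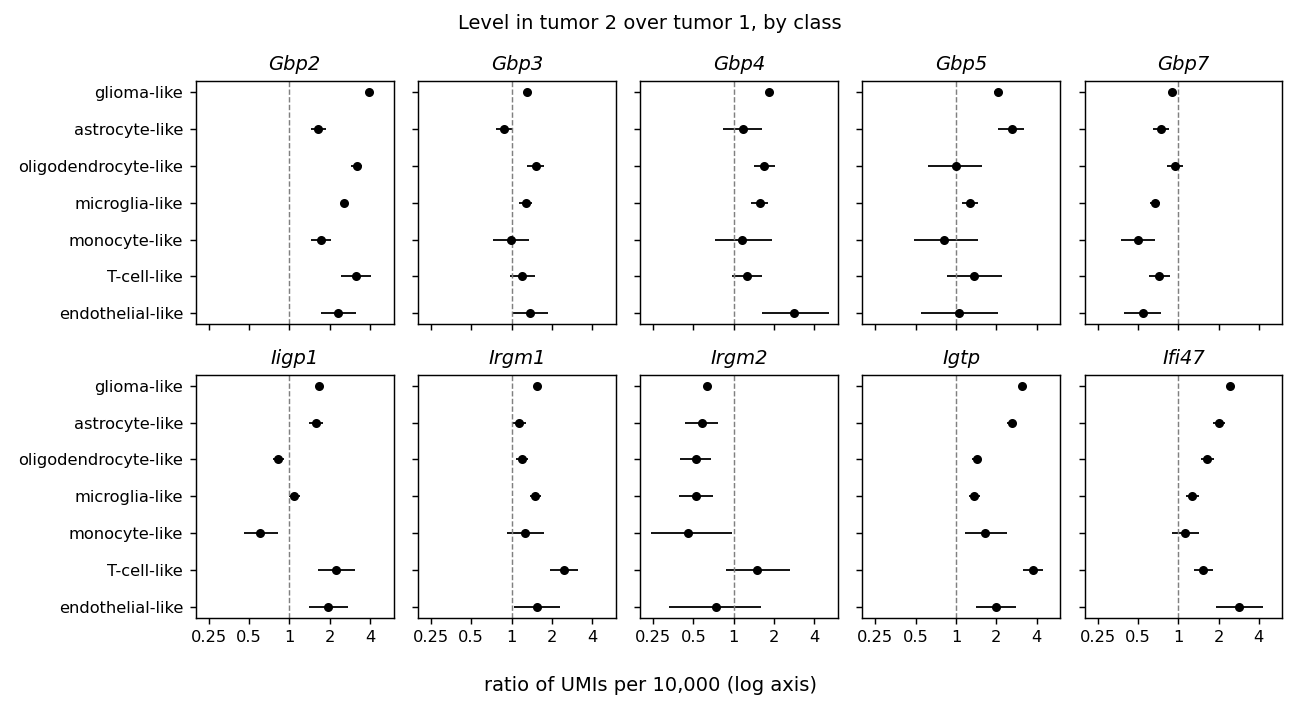
Ratio of the level in tumor 2 to that in tumor 1 (logarithmic x axis, dashed line at 1) for each GTPase in 7 classes. Bars are exact 95% intervals for counting error. Gbp2 and Igtp lie right of 1 in all classes. Gbp7 lies left of 1 on these plain totals, with a bar that crosses 1 in oligodendrocyte-like cells. With TMM scaling Gbp7 turns to 1.04 in glioma-like and 1.09 in oligodendrocyte-like cells. Irgm2 lies left of 1 except in T-cell-like cells, with bars that cross 1 there and in endothelial-like cells.

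To compare single cells at 1 depth, each cell was thinned to 2000 UMIs, which left out 110 glioma-like cells of tumor 1 and 137 of tumor 2. Of the thinned glioma-like cells of tumor 1, 63.1% held a UMI of at least 1 GTPase, 19.6% (18.8 to 20.5) held UMIs of 3 or more and 5.80% of 5 or more. In tumor 2 the shares were 84.5%, 40.7% (39.5 to 41.9) and 12.7%. Before thinning, 74.0% and 90.7% held UMIs of 3 or more, with median depths of 19161.5 and 19469 UMIs. In oligodendrocyte-like cells the thinned share with 3 or more was 62.3% and 62.0%, in astrocyte-like cells 42.9% and 58.1%, and in microglia-like cells 16.6% and 27.9%. T-cell-like cells were lowest, with 4.42% and 20.5%. No class at hand is known to lack these genes, so the share that free RNA in the droplets would give could not be set from a negative class.

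**Figure D4:**
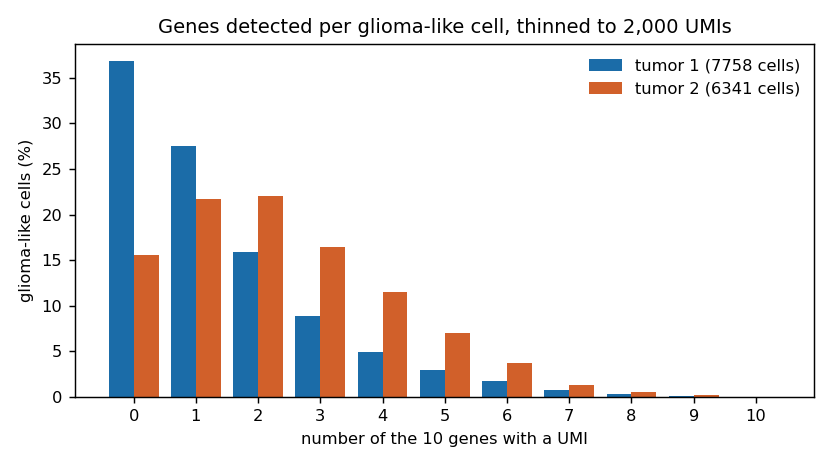
Share of glioma-like cells (y axis, percent) by the number of the 10 GTPases with a UMI (x axis) after thinning to 2000 UMIs per cell, for tumor 1 (7758 cells) and tumor 2 (6341 cells). Cells with 0 GTPases make up 36.9% in tumor 1 and 15.5% in tumor 2, and the tail reaches 9 and 10 genes.

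GTPase transcripts were unevenly spread over the glioma-like cells. After thinning, the summed count per cell had a variance 4.31 times its mean in tumor 1 and 4.36 times in tumor 2, and the tenth of cells with the highest counts held 45.0% and 33.6% of the GTPase UMIs. All 45 pairs of members were found together in glioma-like cells more often than the product of their single shares, with a median ratio of 2.03 (1.37 to 4.79 over pairs) in tumor 1 and 1.40 (1.13 to 2.56) in tumor 2. Neither this spread nor these ratios were computed for other genes or pairs, so they are not read as particular to the members. Such a ratio cannot exceed 1 divided by the larger single share, which for Igtp was 27.0% in tumor 1 and 58.9% in tumor 2. The ratios are therefore not read as a difference between the tumors or between pairs. At this depth the lowest pair was Gbp3 with Irgm1 and the highest Gbp4 with Gbp5 in both. At 4000 UMIs the highest of tumor 1 was Gbp2 with Gbp4 (4.34, against 4.27 for Gbp4 with Gbp5) and the lowest of tumor 2 was Irgm1 with Igtp (1.10). In tumor 1, Gbp4 and Iigp1 shared 1.79% of cells against 0.444% from their single shares, and Gbp2 with Gbp4 shared 0.980% against 0.225%. The GBP sum and the IRG sum of a cell had a Pearson r of 0.46 over 7758 cells of tumor 1 and 0.38 over 6341 cells of tumor 2, a description over cells that share a library.

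Glioma-like cells with a UMI of Cxcl10, a chemokine that interferons induce, had 12.6 GTPase UMIs per 10000 in tumor 1 (3110 cells) and 21.1 in tumor 2 (4172 cells). Those without had 7.31 and 15.3, and had fewer UMIs per cell (17505 and 17061.5 at the median, against 22002.5 and 20830.5). Glioma-like cells with UMIs of both Mki67 and Top2a, genes of cycling cells, had 7.93 and 16.1, against 10.8 and 20.8 in the others. These cycling cells were also the deeper ones, with medians of 26307.5 and 31688 UMIs.

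Among the classes, the ligand was found mainly in T-cell-like and NK-like cells. Ifng stood at 12.5 (12.03 to 12.9) UMIs per 10000 in T-cell-like cells of tumor 1 and at 3.40 (3.25 to 3.55) in those of tumor 2, and at 1.29 and 0.823 in NK-like cells. A UMI of Ifng was seen in 69.6% of T-cell-like cells of tumor 1 and 23.2% of those of tumor 2, at median depths of 9235.5 and 7496 UMIs, against 1.74% and 2.16% of the deeper glioma-like cells, which should lack the gene. The T-cell-like class held 87.2% and 65.3% of all Ifng UMIs of kept cells, and cells in no class 8.37% and 26.9%. Tumor 2, with the higher GTPase level, thus had the lower Ifng level per T-cell-like UMI but the larger share of T-cell-like cells (4.05% of kept cells against 2.02%), and over all kept cells Ifng stood at 0.162 and 0.138. Cell shares also depend on the dissociation and sorting, so they are not shares of the tissue.

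Within the T-cell-like class, cells with a Cd8a or Cd8b1 UMI and none of Cd4 numbered 181 and 205 and had 11.3 and 1.48 Ifng UMIs per 10000. Cells with Cd4 and no Cd8 UMI numbered 29 and 92 and had 28.2 and 12.5, carried by 12 and 23 cells. Other interferons were at the limit of detection in all classes: Ifnb1 had at most 7 UMIs in any class, and of the other type I and type III genes listed, only Ifna2 and Ifnl2 had any, with at most 7.

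The receptor chains were split between classes. Ifngr1, the ligand-binding chain, was highest in lymphocytes, with 3.23 and 5.50 in the T-cell-like class and 4.69 and 10.8 in the NK-like class. It stood at 1.91 and 0.828 in microglia-like and 1.39 and 1.39 in monocyte-like cells, and at 0.211 and 0.249 in glioma-like cells. Ifngr2, the signaling partner chain, was highest in microglia-like cells (1.37 and 1.32) and monocyte-like cells (0.988 and 1.08), stood at 0.187 and 0.154 in glioma-like cells and was low in lymphocytes, with 0.0421 and 0.112 in T-cell-like cells and, in NK-like cells, 0 UMIs in tumor 1 and 0.0386 from 3 UMIs in tumor 2. The classes with the most receptor transcripts were thus not those with the most GTPase transcripts: oligodendrocyte-like cells had 0.197 and 0.154 of Ifngr1 and 0.179 and 0.213 of Ifngr2, near the glioma-like levels.

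**Figure D5:**
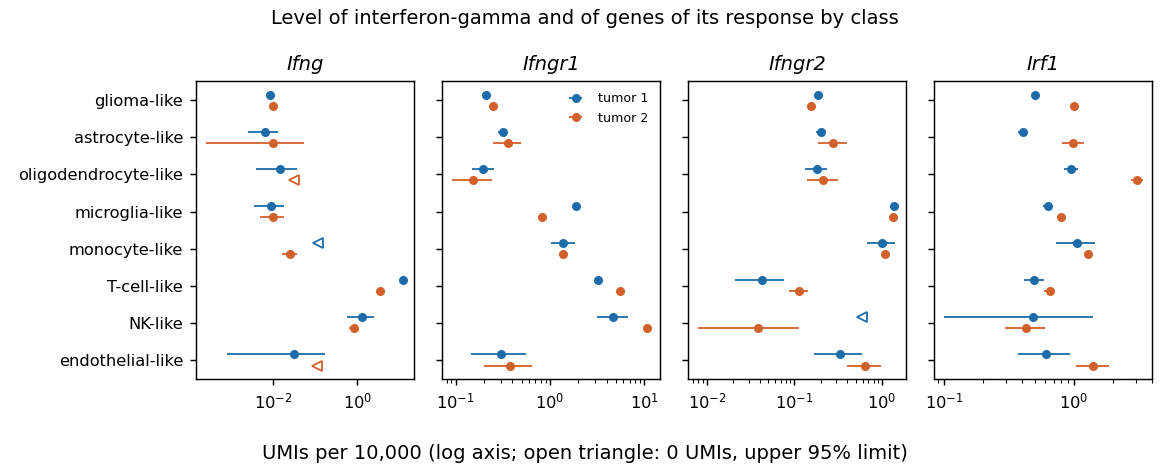
UMIs per 10000 (logarithmic x axes, which differ between panels) of Ifng, Ifngr1, Ifngr2 and Irf1 in 8 classes of tumor 1 and tumor 2, with exact 95% intervals for counting error. Open triangles mark classes with 0 UMIs at the upper limit of the interval; Ifng is high in T-cell-like cells, whereas Irf1 in oligodendrocyte-like cells lies right of glioma-like cells in both tumors.

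For the signaling genes, UMIs were summed per class and tumor. Each class was then compared with glioma-like cells across both tumors by edgeR's quasi-likelihood test with the tumor as a block. Adjustment was by Benjamini-Hochberg over 13994 genes. None of these genes is a member, but their list was also chosen with earlier results of these data known. The calls are therefore not independent of that choice. In oligodendrocyte-like cells, 1 of 11 signaling genes was called higher (8.2% of all genes were) and 0 lower (5.5%). It was Irf1 (log2 difference 1.39, SE 0.33, adjusted p = 0.00749). Irf1 stood at 0.952 and 3.06 in oligodendrocyte-like cells against 0.50 and 1.01 in glioma-like cells, with the classes apart in both tumors. It was not called without the tumor block. In astrocyte-like cells 0 of 11 were called in either direction (7.12% of genes were higher and 4.04% lower).

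In microglia-like cells 8 of 11 were called higher (23.5% of genes) and 0 lower (25.4%). Ifngr2 was 3.86 higher on the log2 scale (SE 0.35, adjusted p = 9.84e-08) and Ifngr1 3.49 higher (SE 0.40). Irf1 passed with a difference of 0.92 (adjusted p = 0.0250), a call lost with DESeq2 size factors, with DESeq2, without doublet removal and without the block. In monocyte-like cells 10 of 11 were called higher (21.4% of genes) and 0 lower (23.5%), all but Socs1, the feedback inhibitor (adjusted p = 0.0588). In T-cell-like cells 5 were higher (20.2% of genes), namely Ifngr1, Jak1, Jak2, Socs1 and the phosphatase Ptpn2, and 1 was lower (20.9%), the class II transactivator Ciita. In endothelial-like cells Ifngr2 alone was higher (difference 1.53, adjusted p = 0.0110, with 11.3% of genes higher) and 0 were lower (10.8%). Microglia-like cells, with more receptor transcript than glioma-like cells, had less Gbp3, Irgm1, Irgm2, Igtp and Ifi47 in both tumors on plain totals. They had more Gbp2, Gbp4 and Gbp5 in both, and Gbp7 and Iigp1 lay lower in tumor 2 only. The receptor differences rest on TMM-scaled totals, where the summed GTPase ratio was 1.59 and 1.07. These values are given side by side with no test of their relation.

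Other interferon targets differed unevenly between the tumors. In glioma-like cells 10 of 15 other interferon-gamma targets were at least 2-fold higher in tumor 2 (10.4% of all genes), with a median log2 ratio of 1.28, among them the immunoproteasome genes Psmb8 (4.92 in tumor 1 and 11.98 in tumor 2), Psmb9 (1.28 and 3.95) and Psmb10 (1.54 and 4.49), and the peptide transporter Tap1 (0.783 and 1.90). B2m, the light chain of class I molecules, had 14.7 and 12.5. Of 14 type I interferon targets 1 was at least 2-fold higher in tumor 2 (10.4% of all genes) and 3 were at least 2-fold lower (24.4%). Their median log2 ratio was -0.53, below the -0.34 of all genes, but their summed level was 1.19 times that of tumor 1. Isg15 had 0.864 in tumor 1 and 4.61 in tumor 2, whereas Ifit1 had 1.21 and 0.368 and Oasl2 0.868 and 0.446. In T-cell-like cells the lists stood the other way, with medians of 0.10 for the interferon-gamma targets and 0.54 for the type I targets. The lists overlap in what induces them, and these differences rest on 1 library against 1.

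The other GBP and IRG genes were sparse. Of 12 further genes counted once in the table, the sum was 1.01 and 1.68 per 10000 in glioma-like cells, whereas oligodendrocyte-like cells had 3.03 and 2.54. Tgtp2 had 0.457 and 0.572 in glioma-like cells, but Tgtp1 and Tgtp2 are near-identical copies and their split is uncertain.

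Over the 14 sums of class and tumor, the IRGs followed each other more closely than the GBPs did. The median Pearson r of log2 levels was 0.78 over the 10 IRG pairs (0.59 to 0.90), 0.55 over the 10 GBP pairs (0.30 to 0.79) and 0.61 over the 25 pairs between families. The pair with the highest value was Iigp1 and Irgm1, and the pair with the lowest was Gbp5 and Igtp (0.20). Iigp1 lay closest to the mean profile of the 10 genes on plain totals (0.98) and Gbp5 farthest from it (0.58). This mean includes each member itself, so the members' values are not set against those of other genes. A level of at least 10 CPM in 3 or more sums was reached by 9850 genes, members included. The other genes among them most like this mean profile were App (r = 0.89), Creb3, Selk, Wsb2, Bckdha, Sbds, Tmem205, Wipi1, Tpgs1 and Wbp2 (0.85). The sums of a tumor come from 1 library, and no p is given.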

How the data were processed

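The authors dissociated dissected tumor regions with papain, sorted designated cells, prepared 10x 3′ libraries and aligned them with Cell Ranger 4.0.0 to mm10 with transgenes added; deposited values are raw UMI counts per gene and barcode, not normalized. The notes also name Seurat, whose output was not used. Barcodes with under 500 genes, 20% or more mitochondrial or 5% or more haemoglobin UMIs were left out. Scrublet (scanpy 1.11.5), run on the barcodes that passed, marked 0 doublets by its automatic threshold in each library, so top-scoring barcodes were taken out (0.8% for each 1000 barcodes), leaving 11380 and 13200 cells (medians 18074.5 and 13128.5 UMIs). A class needed UMIs of 5 of 9 glioma, 5 of 8 astrocyte, oligodendrocyte or endothelial, 3 of 6 microglia, 3 of 4 monocyte, 2 of 4 T-cell or 2 of 5 NK markers, and cells that met several classes or those of mural, B, neutrophil or dendritic cells were left out. Levels are summed counts per 10000. Ratios over all genes used genes with 20 or more UMIs.

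The signaling genes were tested in edgeR 4.0.16 (R 4.3.3) on 14 sums of 7 classes, with TMM factors, filterByExpr and an adjusted p threshold of 0.05. Same-numbered sums come from the same animal and library, so tumor was a block. The differences between tumors correlated over 0.1 in 17 of 21 pairs of classes (median r 0.17). The script was tested on simulated data first. Alternatives were DESeq2 1.42.0, its size factors, no low-count filter, no block, no doublet removal, each tumor alone, stricter gates, a 10% mitochondrial limit, other thinning depths and, chosen after seeing the data, a sum without Igtp and TMM-scaled totals.

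Named were all 10 members, Ifng, Ifngr1, Ifngr2, Jak1, Jak2 and Irf1, the 10 genes most like the members, and up to 4 genes of each list with the highest summed level. One further signaling gene is not reported here. Any other gene named was picked after its values were seen. The members and lists were chosen with earlier results of these data known.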

Additional observations from a re-analysis of the deposited data

Results flagged for a closer look

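Iigp1 differed between classes in its change from tumor 1 to tumor 2, with a ratio of 2.22 in T-cell-like and 0.606 in monocyte-like cells, both intervals being clear of 1. With TMM scaling the ratios were 2.46 and 0.952. The difference between the classes was not tested, and the monocyte-like value of tumor 1 rests on 31 cells and 50 UMIs of Iigp1.

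Cells that met the markers of no class, which entered no comparison, also carried the GTPases, at 15.5 UMIs per 10000 (15.4 to 15.6) in tumor 1 and 19.2 (19.1 to 19.3) in tumor 2. Their median depth was 12153 and 2662 UMIs.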

How the results depend on the processing

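The 2 tumors gave 1 library each, so no alternative measures the spread between animals. The comparison of signaling genes between classes was paired by tumor. Without the replicate block, the genes called against glioma-like cells numbered 0 in oligodendrocyte-like (1 with the block), 3 in microglia-like (8), 6 in monocyte-like (10), 4 in T-cell-like (6) and 0 in endothelial-like cells (1). Over all genes, dropping the block moved the calls from 1562 to 239 in astrocyte-like, 1917 to 501 in oligodendrocyte-like, 6849 to 4429 in microglia-like, 6274 to 3807 in monocyte-like, 5755 to 3150 in T-cell-like and 3093 to 1659 in endothelial-like cells. In endothelial-like cells, DESeq2 size factors and DESeq2 each called 3 of 11 signaling genes, where 3077 and 2954 of all 13994 genes were called. Without the filter on low counts, Jak2 in oligodendrocyte-like cells turned to -0.011 (log2). In each tumor alone, where no test is possible, the log2 fold ranged from -0.25 to 0.039 for Irf1 in astrocyte-like cells, from -0.34 to 0.20 for Jak2 in oligodendrocyte-like cells and from -1.45 to 0.18 for Ifngr2 in T-cell-like cells.

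The ratio of the summed GTPase level, tumor 2 over tumor 1, became 1.96 in glioma-like and 1.51 in oligodendrocyte-like cells with no doublet removal. With stricter gates it was 1.96 in glioma-like, 1.28 in astrocyte-like, 1.35 in oligodendrocyte-like and 1.54 in microglia-like cells, and it reversed to 0.962 in monocyte-like cells. Without Igtp it was 1.64 in glioma-like, 1.25 in astrocyte-like and 1.52 in T-cell-like cells. With totals scaled by TMM it was 2.28 in glioma-like, 1.74 in astrocyte-like, 1.599 in oligodendrocyte-like, 1.53 in microglia-like, 1.84 in monocyte-like, 2.05 in T-cell-like and 1.79 in endothelial-like cells. TMM scaling, chosen after seeing the data, also put the class over glioma-like ratios at 1.99 and 1.52 in astrocyte-like, 3.22 and 2.25 in oligodendrocyte-like, 1.59 and 1.07 in microglia-like and 2.05 and 1.65 in monocyte-like cells (tumors 1 and 2). For the T-cell-like class they were 0.620 and 0.556. The microglia-like ratios and the second monocyte-like ratio thereby crossed 1. The share of glioma-like cells with at least 3 members detected was 35.1% and 61.6% at 4000 UMIs per cell and 74.0% and 90.7% without thinning. Beyond what each alternative changes by construction, the cause was not tested. Of the other values recomputed, for the single genes 195 kept direction and side of the threshold, 7 lost a call and 4 gained one.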
